A study of Mus musculus with 24 samples.

Results

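The cholesterol synthesis genes described here in mouse liver are the regulator Srebf2, its inhibitor Insig1 and the enzymes Hmgcs1, Idi1, Sqle, Lss and Cyp51. They were chosen by symbol, 7 of the 50657 gene symbols in the count files, and all 7 were among the 13204 genes with enough reads to test. Liver RNA had been sequenced from single mice during an experiment with an overdose of acetaminophen, a painkiller whose toxic metabolite damages hepatocytes. Wild-type mice (WT) were compared with mice in which the epidermal growth factor receptor gene, Egfr, was deleted in hepatocytes (KO), so that the other liver cells of KO mice keep the gene. Livers were taken at 0, 1, 3 and 12 h from 3 mice of each genotype, which gives 8 groups and 24 libraries. The mice at 1, 3 and 12 h had received 500 mg/kg of acetaminophen in both genotypes. Whether the 0 h mice were injected is not stated, and the groups analysed hold no untreated mice at the later times, so effects of the drug on a change from 0 h cannot be told apart from those of handling or clock time. The sources used here do not give the strain, sex, age or driver of the deletion, and the 6 h and 24 h times of the series were not analysed here.

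Cells make cholesterol from acetyl-CoA through mevalonate, isoprenoids, squalene and a series of sterols, and the liver is a main site of this synthesis. When sterols in the membrane of the endoplasmic reticulum are low, the protein made from Srebf2, SREBP2, is carried to the Golgi, cut, and enters the nucleus, where it binds sterol regulatory elements and raises transcription of the synthesis enzymes. When sterols are plentiful, the Insig proteins hold SREBP2 and its escort Scap in place. Srebf2 and Insig1 are themselves known targets of SREBP2.

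The sterol regulatory element is a short run of bases in promoters, and 3 of the genes carry a match to a loose form of its core just upstream of their start. The sequences below are read from RefSeq's GRCm38.p6 mouse assembly, which is not the build the counts were made on. They cover Srebf2 (chr15:82147019-82147168, plus strand, 250 to 101 bases before the start), Hmgcs1 (chr13:119690101-119690250, plus strand, 250 to 101 bases before the start) and Cyp51 (chr5:4104748-4104897, minus strand, 200 to 51 bases before the start). Capitals mark matches on either strand to TCACNNCA, a loose form of the sterol regulatory element core, or to CCAAT, the box bound by NF-Y, a known partner of SREBP2.
Srebf2: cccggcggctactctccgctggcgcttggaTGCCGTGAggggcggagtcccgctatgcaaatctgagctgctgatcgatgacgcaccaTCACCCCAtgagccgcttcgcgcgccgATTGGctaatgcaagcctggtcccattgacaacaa
Hmgcs1: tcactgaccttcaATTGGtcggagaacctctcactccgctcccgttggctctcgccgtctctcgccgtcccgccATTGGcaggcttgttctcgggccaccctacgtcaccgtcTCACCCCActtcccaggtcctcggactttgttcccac
Cyp51: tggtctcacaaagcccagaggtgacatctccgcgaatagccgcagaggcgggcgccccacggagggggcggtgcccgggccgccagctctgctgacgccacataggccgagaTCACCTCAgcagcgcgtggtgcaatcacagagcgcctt

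The exact core TCACCCCA lay 162 to 155 bases before the start of Srebf2 and 137 to 130 bases before that of Hmgcs1. It was present in 2 of the 6 members that have a promoter in the table, against 1.34% of 32851 promoters searched over the same 250 bases on both strands. The looser TCACNNCA, which includes every TCACCCCA match, was in 3 of 6, against 11.4% of promoters. CCAAT was in all 6, against 33.8%, and the E-box CANNTG was in 4 of 6, against 66.2%. These motifs were chosen with the sequences in view, and a match of letters does not show that a factor binds there. Among the other enzymes of the pathway, 0 of 11 with a promoter held TCACCCCA, 5 held TCACNNCA and 10 held CCAAT. Dhcr7 has 3 promoters in the table and Pmvk 2, and a match in any of them was counted. The percentages above are per single promoter.

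Levels are given as CPM, the count of a gene relative to the library total, with library sizes scaled by the trimmed mean of M values (TMM), and in the order of replicates 1, 2 and 3. CPM is not corrected for gene length, so levels are compared between mice and never between genes. Counts on genes ran from 3537237 to 7580645 per library. Idi1 and Sqle were the thinnest members, with 1 to 67 and 9 to 129 counts per library. Egfr itself stood at 59.5, 78.0 and 110 CPM in KO mice at 0 h and 385, 334 and 461 CPM in WT mice, and the library labelled KO 1 h replicate 1 went against its label, at 335 CPM beside 136 and 155 CPM in the other KO mice at 1 h. The WT mice at 1 h were at 332, 407 and 400 CPM. At 3 h Egfr was at 82.3, 184 and 271 CPM in KO mice and 303, 633 and 455 CPM in WT mice. The KO mice at 3 h were thus uneven in Egfr, though all lay below the WT mice of that time. At 12 h it was at 65.9, 117 and 43.0 CPM in KO mice and 263, 205 and 203 CPM in WT mice. Fold changes are from edgeR's quasi-likelihood test over all 24 libraries, and a gene is called where the Benjamini-Hochberg adjusted p over all 13204 genes is below 0.05. The labels say that samples came from individual mice. In whole liver, fewer cells of a type and less RNA per cell cannot be told apart.

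A single mouse stood out in every one of the 7 genes. KO 0 h replicate 1 was the highest of all 24 libraries for 7 of 7 members, while it was the highest for 4.53% of all genes tested, within the 1.24% to 8.36% seen for the other libraries. Its level was between 1.58 and 6.83 times the mean of the other KO mice at 0 h. In the same group, replicate 3 was the lowest of the 3 mice for all 7 genes, so the mean of the KO mice at 0 h lies between widely separated animals. The members' fold changes and calls that rest on this group are therefore given with and without that mouse. So are those of other genes where leaving it out changed the call or moved the value by more than 1.5 times.

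Srebf2, the gene of the transcription factor, was measured at 12.5, 13.9 and 10.9 CPM in WT mice at 0 h and at 20.3, 14.9 and 10.7 CPM in KO mice. At 1 h it was at 9.91, 8.42 and 7.77 CPM in WT and 10.6, 10.3 and 7.52 CPM in KO mice. In both genotypes all 3 mice at 1 h lay below all 3 at 0 h, though in KO the groups were separated only by the 10.7 CPM of replicate 3 and the 10.6 CPM of the mouse whose Egfr went against its label. At 3 h the values were 7.85, 9.35 and 12.1 CPM in WT and 10.9, 7.19 and 9.18 CPM in KO mice, and at 12 h they were 10.4, 10.3 and 13.2 CPM and 10.3, 9.83 and 12.9 CPM. From 3 h on the WT mice overlapped those at 0 h, as did the KO mice.

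Srebf2 was the one member called in any comparison. It fell in KO mice by 0.69 on the log2 scale at 1 h (SE 0.20, edgeR adjusted p = 0.0297) and by 0.72 at 3 h (SE 0.21, edgeR adjusted p = 0.022). Without KO 0 h replicate 1 the changes were -0.44 (edgeR adjusted p = 0.252) and -0.46 (edgeR adjusted p = 0.215), and neither was called. Other single mice decided the calls too: adjusted p at 1 h was 0.0776 without KO 0 h replicate 2, 0.0692 without KO 1 h replicate 2 and 0.19 without KO 1 h replicate 3, and at 3 h it was 0.06 without KO 0 h replicate 2, 0.128 without KO 3 h replicate 2 and 0.0932 without KO 3 h replicate 3. In WT mice at 1 h the change was -0.50 (SE 0.21, edgeR adjusted p = 0.159), and the difference between the genotypes' responses at 1 h was -0.19 (SE 0.29, edgeR adjusted p = 0.887), or 0.06 without KO 0 h replicate 1 (SE 0.28, edgeR adjusted p = 0.973).

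Hmgcs1, the cytosolic synthase that makes HMG-CoA for the mevalonate pathway, was the member that followed the others most closely. At 0 h it was at 42.8, 35.1 and 36 CPM in WT and 135, 48.3 and 33.3 CPM in KO mice. The first KO mouse was 3.30 times the mean of the other 2 and 3.15 times the highest WT mouse, while the other 2 KO mice lay on either side of the WT range. At 1 h the values were 53.0, 41.5 and 41.3 CPM in WT and 57.0, 31.8 and 26 CPM in KO, where the highest was again the mouse with Egfr against its label. At 3 h they were 31.5, 47.5 and 29.3 CPM in WT and 36.5, 33.1 and 35 CPM in KO, and at 12 h 41.4, 36.7 and 52.9 CPM and 35.5, 28.3 and 45.4 CPM. No later group separated from its 0 h group.

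Idi1, the isomerase that turns one isoprenoid building block into the other, was at 2.45, 1.89 and 1.47 CPM in WT and 10.6, 2.24 and 0.869 CPM in KO mice at 0 h. The first KO mouse was 6.83 times the mean of the other 2. At 1 h Idi1 was at 2.01, 1.57 and 1.98 CPM in WT and 3.31, 1.35 and 0.893 CPM in KO mice, and at 3 h at 0.138, 2.23 and 1.58 CPM and 1.47, 0.654 and 0.622 CPM. At 12 h all 3 WT mice, at 2.53, 3.06 and 3.63 CPM, lay above the 3 KO mice, at 1.76, 1.23 and 1.4 CPM, and above the WT mice at 0 h. The difference between genotypes at 12 h was -1.08 (SE 0.93, edgeR adjusted p = 0.749) and rested on 4 to 14 counts per mouse. A copy of the gene, the pseudogene Idi1-ps2, was at 10.1, 11.8 and 10.5 CPM in WT and 11.2, 26.1 and 25.5 CPM in KO mice at 0 h. Reads that match both copies equally are counted on neither, so the Idi1 count is uncertain. The pseudogene did not share the high value of the first KO mouse.

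Sqle, squalene epoxidase, which carries out the first oxygen-requiring step, was at 5.54, 4.20 and 4.53 CPM in WT and 20.4, 4.92 and 3.35 CPM in KO mice at 0 h. The first KO mouse was 4.93 times the mean of the other 2. Of its reads over all libraries 60.8% lay on the gene's own strand, so part of the count may belong to an overlapping gene on the other strand. On the gene's strand alone the 0 h counts were 27, 12 and 23 in WT and 119, 17 and 13 in KO mice, while on the other strand they were 16, 8 and 11 in WT and 10, 16 and 14 in KO mice. After 0 h Sqle stayed between 2.42 CPM, in KO 1 h replicate 3, and 7.52 CPM, in WT 3 h replicate 2. The high value of the first KO mouse at 0 h was thus in the reads of the gene's own strand.

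Lss, which closes squalene epoxide into lanosterol, and Cyp51, which removes a methyl group from lanosterol, follow in the pathway. Lss was at 11.6, 7.36 and 8.53 CPM in WT and 13.1, 9.10 and 7.08 CPM in KO mice at 0 h, with overlapping groups at every time and the smallest lead of the first KO mouse over WT, 1.13 times the highest WT mouse. Cyp51 was at 28.6, 25.6 and 18.0 CPM in WT and 54.3, 30.7 and 11.8 CPM in KO mice at 0 h. Its KO mice at 0 h spanned the whole range of the experiment, since 54.3 CPM was the highest and 11.8 CPM the lowest of all 24 libraries. Of the Cyp51 reads over all libraries 86% lay on the gene's own strand, and these levels count both strands. On the gene's strand alone the 0 h counts were 205, 116 and 126 in WT and 339, 193 and 79 in KO mice. In WT 3 h replicate 1, 48 counts lay on the other strand beside 75 on the gene's own. At 1 h Cyp51 was at 25, 25.5 and 29.7 CPM in WT and 28.1, 15.8 and 15.6 CPM in KO mice. At 3 h the levels were 16.9, 29.7 and 17.7 CPM in WT and 17.1, 22.0 and 20.4 CPM in KO mice. At 12 h Cyp51 was at 21.8, 22.8 and 28.5 CPM in WT and 25.8, 20.4 and 34.6 CPM in KO mice, and the genotypes overlapped. For Lss the lowest of all mice was WT 12 h replicate 2, at 2.22 CPM beside 7.91 and 11.4 CPM in the other WT mice at 12 h.

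Insig1, which retains SREBP2 in the endoplasmic reticulum, was at 42.1, 43.5 and 28.8 CPM in WT and 93.6, 43.7 and 28.3 CPM in KO mice at 0 h. At 1 h the WT mice were at 25.8, 30.5 and 25.9 CPM and the KO mice at 65.7, 18.0 and 18.7 CPM. The library labelled KO 1 h replicate 1 was 3.58 times the mean of the other KO mice at that time, the widest gap of that library in any member. At 3 h the values were 30.1, 42.9 and 21.9 CPM in WT and 31.9, 26.4 and 20.4 CPM in KO mice. At 12 h the 3 WT mice, at 56.3, 48.6 and 85.6 CPM, lay above all WT mice at 0 h, with a change of 0.75 (SE 0.51, edgeR adjusted p = 0.313). The KO mice at 12 h, at 36.1, 19.2 and 54.1 CPM, overlapped both the WT mice at 12 h and their own 0 h group, and the difference between the genotypes' responses was -1.36 (SE 0.73, edgeR adjusted p = 0.546), or -0.75 without KO 0 h replicate 1 (SE 0.69, edgeR adjusted p = 0.805).

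No member was called between genotypes at any time. At 0 h all 7 fold changes of KO against WT were above 0, from 0.06 for Lss to 1.17 for Idi1, with a median of 0.53 against -0.00 for all genes, and 0 of 7 were called where 0.0151% of all genes were. By unadjusted p below 0.05 there was 1 member, Hmgcs1 (0.91, SE 0.40, edgeR adjusted p = 0.559), and DESeq2 called 0. Without KO 0 h replicate 1 the median was -0.19, with 2 of 7 above 0. The changes then ran from -0.36 for Idi1 to 0.10 for Hmgcs1 (SE 0.28, edgeR adjusted p = 0.971). The calls were also 0 of 7 at 1 h (0.492% of all genes called), at 3 h (0.977%), at 12 h (0.053%) and for the average over the 4 times (0% of genes called, with 929 genes at an unadjusted p below 0.05 and 1 called by DESeq2). As edgeR called no gene for that average, the deleted gene Egfr was not called there either. The 0 of 7 for the average therefore says little about the members. The members' median at 1 h was -0.08, and -0.58 without the library labelled KO 1 h replicate 1. In those 4 comparisons no member reached an unadjusted p below 0.05, and DESeq2 called none.

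In WT mice no member was called at any time after acetaminophen. With 7 genes, these counts are near the share of all genes called. At 1 h 0 of 7 were called against 8.09% of all genes, at 3 h 0 of 7 against 14.1%, and at 12 h 0 of 7 against 25.6%. By unadjusted p below 0.05 there was 1 member at 1 h, Srebf2, and none at 3 or 12 h, and DESeq2 called 0 at each time. The medians of the 7 fold changes were -0.30, -0.23 and 0.03. At 3 h WT replicate 2 was the highest of its group in 6 of 7 members. That mouse and replicate 3 also had summed red blood cell markers of 252 and 331 CPM beside 80.1 CPM in replicate 1, and the part of this in the members' values was not tested.

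In KO mice every member had a fold change below 0 at each later time, and its size depended on which mice stood for 0 h. At 1 h 1 of 7 was called against 7.58% of all genes, at 3 h 1 of 7 against 9.95%, and at 12 h 0 of 7 against 28.8%. At an unadjusted p below 0.05 there were 4, 5 and 2 members, and DESeq2 called 0, 2 and 0. The median fold changes were -0.77, -1.04 and -0.62, with 0 of 7 above 0 at each time, against medians of all genes of -0.00, -0.02 and -0.00. Without KO 0 h replicate 1 they were -0.11, -0.43 and -0.02, with 2, 0 and 2 of 7 above 0, and no member was called. With the lowest mouse, KO 0 h replicate 3, left out instead, the calls were 2, 5 and 3. Without the library labelled KO 1 h replicate 1, whose Egfr goes against its label, the median at 1 h was -1.30, and 1 member was called. These 3 comparisons share the KO mice at 0 h and are not independent of each other.

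**Figure D1:**
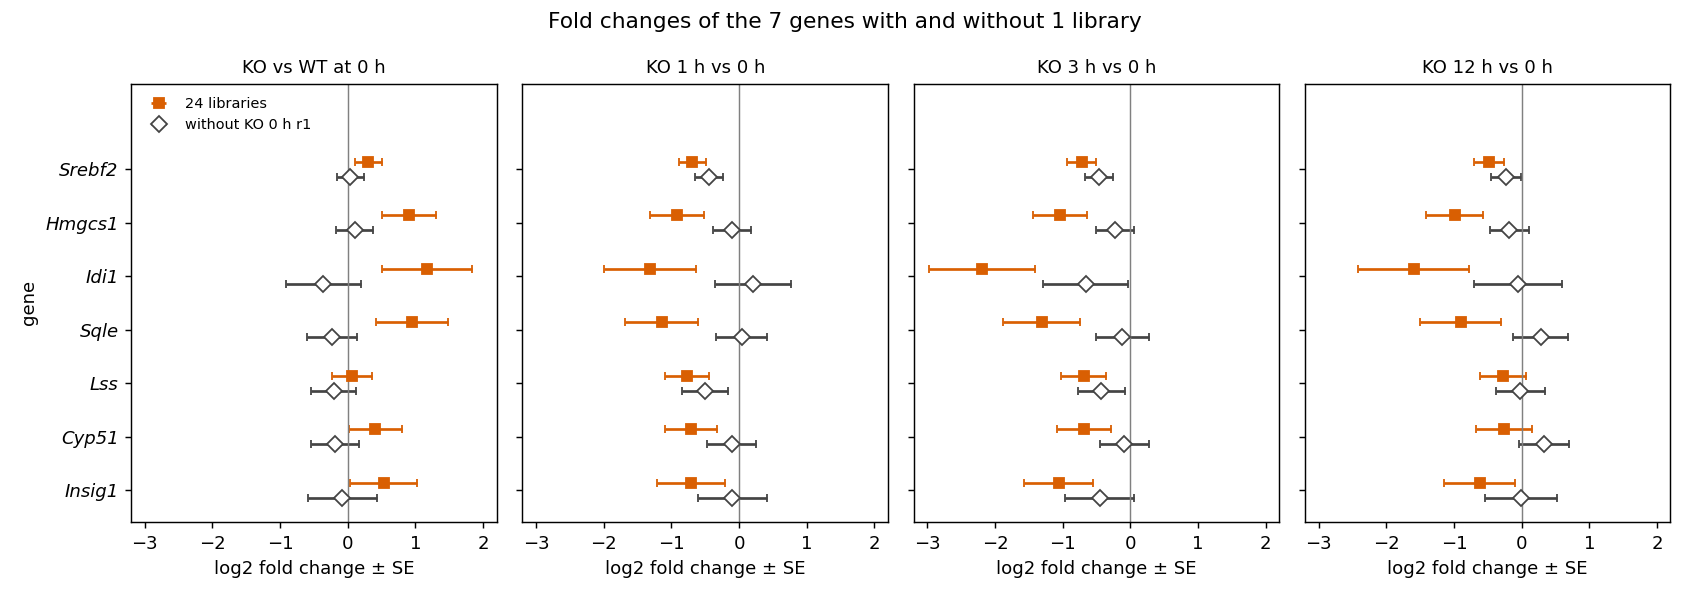
Log2 fold change (horizontal axis, with SE) of each member for KO against WT at 0 h and for KO mice at 1, 3 and 12 h against 0 h, from all 24 libraries (filled squares) and without KO 0 h replicate 1 (open diamonds). The Hmgcs1 value at 3 h goes from -1.04 to -0.22 and that of Idi1 from -2.19 to -0.66.

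The responses of the genotypes were compared directly in the same fit. The KO response minus the WT response was called for 0 of 7 members at 1 h (0.454% of all genes), 0 at 3 h (0.151%) and 0 at 12 h (0.0227%). The medians were -0.81, -0.79 and -0.47, and without KO 0 h replicate 1 they were 0.06, -0.12 and -0.11. Without the library labelled KO 1 h replicate 1 the median at 1 h was -1.11. No member had an unadjusted p below 0.05 in these 3 comparisons, and DESeq2 called none. The largest difference in size was that of Idi1 at 12 h, -2.25 (SE 1.15, edgeR adjusted p = 0.518), which became -0.72 (SE 0.81) without that mouse.

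Ordered by group means, the members had no shared sequence of groups below the top. KO at 0 h had the highest mean for 6 of 7 members, and WT at 12 h had it for Insig1. With KO 0 h replicate 1 left out, KO at 0 h kept the highest mean for 1 member, Srebf2, at 12.8 CPM, and other groups had it for the other 6. Of the 7 steps between neighbouring groups in each order, none separated the mice of the lower group from those of the higher, apart from the step from WT at 0 h to WT at 12 h in Idi1. Means ran from 8.70 to 15.3 CPM for Srebf2, 34.9 to 72.2 for Hmgcs1, 0.916 to 4.57 for Idi1, 3.52 to 9.57 for Sqle, 5.60 to 9.77 for Lss, 19.8 to 32.3 for Cyp51 and 26.2 to 63.5 for Insig1. Single mice also stood apart together in other groups. WT 12 h replicate 3 was the highest of its group in 7 of 7 members, and the library labelled KO 1 h replicate 1 in 6 of 7, while each was the highest of 3 in 33.4% and 35% of all genes.

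Most members therefore varied together between mice, and Lss did so least. Against the mean of the other 6, Pearson's r of log2 CPM over 24 libraries was 0.89 for Hmgcs1, 0.81 for Cyp51, 0.79 for Sqle, 0.78 for Idi1, 0.74 for Insig1, 0.72 for Srebf2 and 0.34 for Lss. Over the 21 pairs of members the median r was 0.64, and without KO 0 h replicate 1 it was 0.43. Without that mouse the pairs ran from -0.06 to 0.73. The r of single members with the other 6 then ran from 0.14 for Lss to 0.78 for Hmgcs1. Outside the members, the genes most like their mean were Msmo1 (0.86), which takes part in removing further methyl groups from the sterol, Fdft1 (0.80), squalene synthase, Stard4 (0.76), a carrier of cholesterol between membranes, and Fdps (0.76), which makes farnesyl diphosphate. They were followed among genes in no list by Inhbc (0.74), Hook2 (0.70), Cyp2j5 (0.69), Pm20d1 (0.69) and Nfix (0.69). After the group means were subtracted the order began with Msmo1 (0.89), Fdft1 (0.89), Stard4 (0.82), Pdxk (0.81) and Adh4 (0.81). These correlations describe the same libraries and share their scaling. Without KO 0 h replicate 1 Msmo1 (0.73) and Crot (0.71), a peroxisomal acyltransferase, came first, and without all 3 KO libraries at 0 h it was Crot (0.73), with Msmo1 at 0.70.

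The other enzymes of the pathway were taken as a list of 15 genes, of which 13 were tested. The first KO mouse at 0 h was the highest of 24 libraries in 9 of these 13, and the highest of the 6 libraries at 0 h in 12 of 13. Msmo1 was at 19.2, 13.7 and 12.1 CPM in WT and 41.8, 16.9 and 8.94 CPM in KO mice at 0 h. Fdft1, at 35.9, 17.5 and 13.2 CPM in KO mice, showed the same order of the 3 mice.

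In KO mice at 3 h 3 of these 13 enzymes were called, all lower, against 9.95% of all genes, and at 12 h 2 of 13, both lower, against 28.8%, while 0 of 13 were called by edgeR in each of the other 12 comparisons. In those 12, between 0 and 5 of the 13 had an unadjusted p below 0.05, and DESeq2 called 1 gene in 1 of them. Without KO 0 h replicate 1, 14 of the enzymes were tested. In KO mice 0 of them were then called at 3 h, and 2 at 12 h, both lower. Sc5d, a desaturase that acts late in the pathway, fell by 0.61 at 3 h (SE 0.17, edgeR adjusted p = 0.0213), and Msmo1 fell by 1.5 (SE 0.45, edgeR adjusted p = 0.0461). Without KO 0 h replicate 1 the changes were -0.40 for Sc5d (edgeR adjusted p = 0.165) and -0.70 for Msmo1 (edgeR adjusted p = 0.263), and leaving out single mice in turn ended the calls in 3 and 21 of 24 cases. For Sc5d the other cases were KO 3 h replicate 2 (edgeR adjusted p = 0.0943) and KO 3 h replicate 3 (0.0925). At 12 h Sc5d fell by 0.98 (SE 0.18, edgeR adjusted p = 0.000133), and here all 24 leave-outs kept the call. Sc5d went from 118, 85.8 and 77 CPM in KO mice at 0 h to 49.2, 34.9 and 59.4 CPM at 12 h, with WT mice at 66.7, 66.4 and 68.7 CPM. All 3 KO mice at 12 h lay below every KO mouse at 0 h and below every WT mouse at 12 h. The difference between genotypes in Sc5d at 12 h, -0.50 (SE 0.18, edgeR adjusted p = 0.317), was not called.

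**Figure D2:**
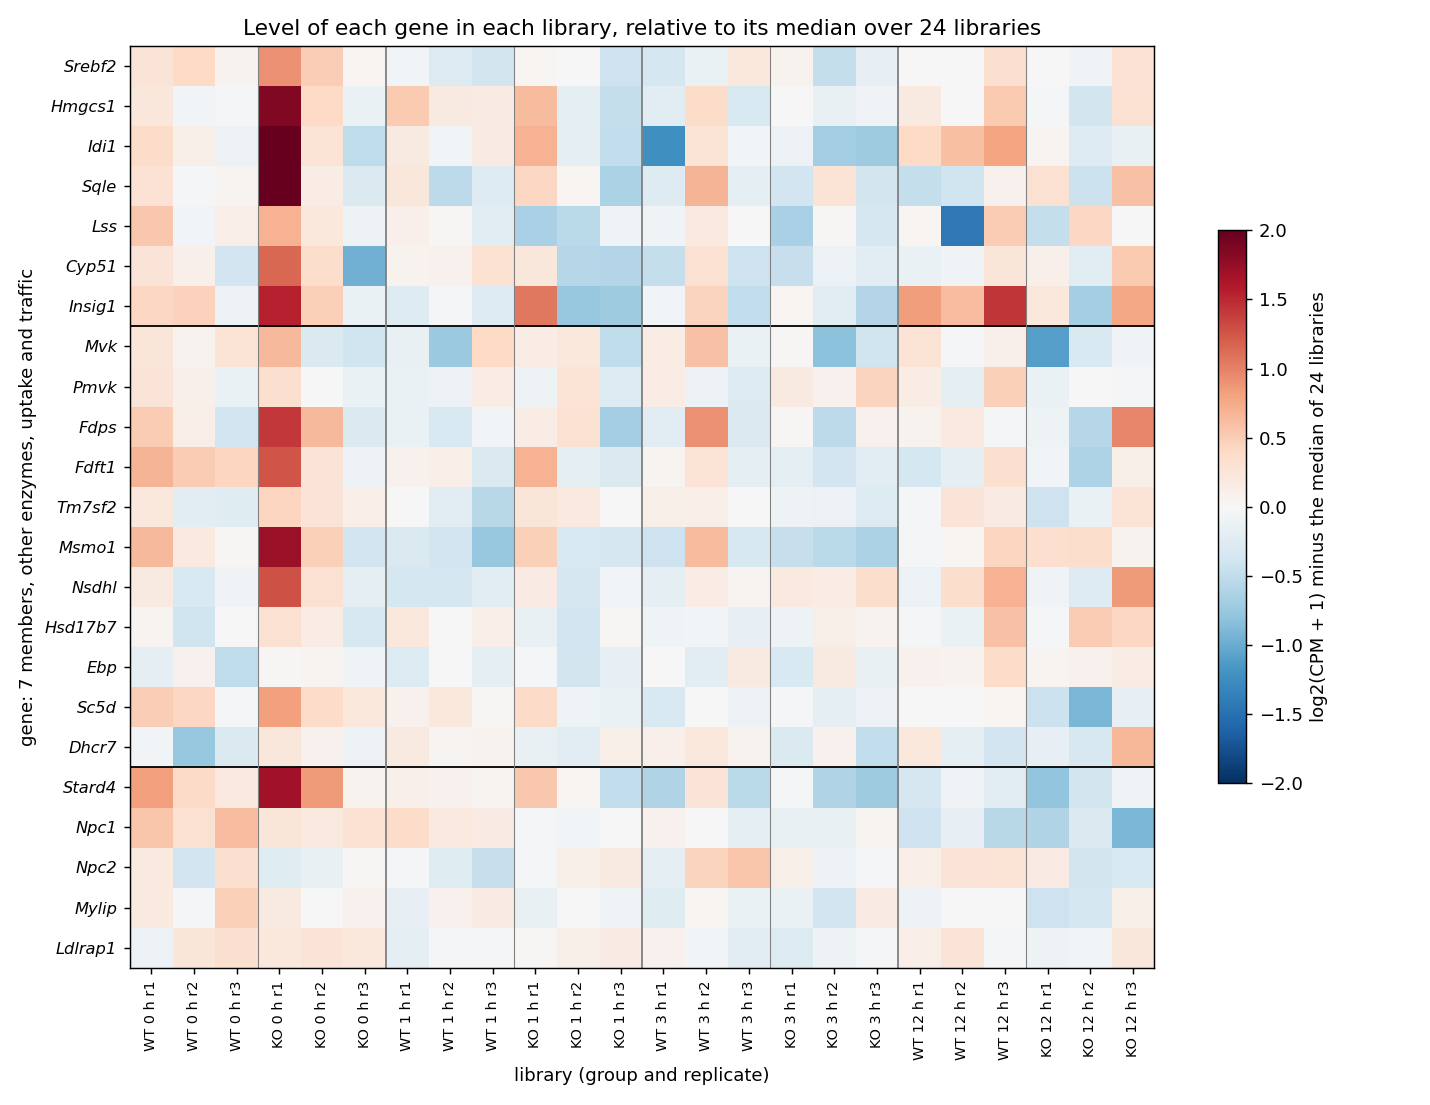
Log2(CPM + 1) of each gene minus its median over 24 libraries (colour, from blue for lower to red for higher) in every library, with the 7 members at the top, 11 of the other tested enzymes in the middle and 5 genes of sterol uptake and traffic at the bottom. The column of KO 0 h replicate 1 is red in the members and in most other enzymes.

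Genes of SREBP2 processing and of sterol removal had their highest level in KO 0 h replicate 1 about as often as all genes. That mouse was the highest of 24 libraries in 0 of 9 processing genes and 0 of 13 genes of sterol efflux, esterification and breakdown. The count was 2 of 7 for genes of uptake and traffic and 2 of 9 for lipogenic targets of SREBP1, against 4.53% of all genes. Among the 6 libraries at 0 h it was the highest in 1 of 9 processing genes, 1 of 13 removal genes, 3 of 7 uptake genes and 6 of 9 lipogenic targets, against 15.5% of all genes. Insig2, the paralog of Insig1, was at 186, 172 and 216 CPM in KO and 192, 167 and 237 CPM in WT mice at 0 h, so that the first KO mouse lay among the others. Summed markers placed that mouse inside the range of the other 0 h mice for hepatocytes (39117 CPM, others 34503 to 42262), Kupffer cells (69.3 CPM, others 51.2 to 125), endothelial cells (316 CPM, others 273 to 331) and red blood cells (64.6 CPM, others 63.7 to 146), and below it for stellate cells (163 CPM, others 176 to 217). Its count on genes, 5955695, was within the 4597713 to 7580645 of the other mice at 0 h. The part of these measures in the members' values was not tested.

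Of the 9 genes of processing and sensing, edgeR called 1 in WT mice at 1 h (8.09% of all genes). It called 2 at 3 h (14.1%) and 3 at 12 h (25.6%). In KO mice it called 1 at 1 h (7.58%), 1 at 3 h (9.95%) and 2 at 12 h (28.8%). In WT mice at 12 h 1 of the 3 fell, and every other call was a rise. These counts are near the share of all genes. Insig2 changed with time where Insig1 was not called. In WT mice it rose by 1.46 (SE 0.20, edgeR adjusted p = 3.2e-05) at 1 h, to 622, 469 and 551 CPM, and by 1.14 (SE 0.20, edgeR adjusted p = 0.000356) at 3 h. In KO mice it rose by 1.35 (SE 0.20, edgeR adjusted p = 8.38e-05) at 1 h, to 346, 534 and 586 CPM, by 1.43 at 3 h (SE 0.20, edgeR adjusted p = 3.65e-05) and by 1.08 at 12 h (SE 0.20, edgeR adjusted p = 0.000218). At each of these times the 3 mice lay above all 3 of their genotype at 0 h, and no leave-out of a single mouse ended a call. The rise in WT mice at 12 h, 0.55 (SE 0.20, edgeR adjusted p = 0.0453), was lost in 11 of 24 leave-outs and with scaling by library size alone (0.19, edgeR adjusted p = 0.581). The difference between the genotypes was called at no time.

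Of the other 8 genes of processing and sensing, Srebf1, the gene of the lipogenic factor SREBP1, rose at 12 h by 2.26 in WT (SE 0.35, edgeR adjusted p = 7.92e-05) and by 1.30 in KO mice (SE 0.35, edgeR adjusted p = 0.00774). Its levels went from 8.89, 4.83 and 4.26 CPM to 30.4, 27.5 and 30.6 CPM in WT, and from 14.1, 7.31 and 5.96 CPM to 26.7, 18.7 and 21.3 CPM in KO mice. The groups at 12 h did not overlap those at 0 h in either genotype. It also rose in WT mice at 3 h by 1.20 (SE 0.36, edgeR adjusted p = 0.0297), a call lost without WT 0 h replicate 2, WT 0 h replicate 3 or WT 3 h replicate 1 (highest adjusted p 0.216). Rnf139, an E3 ligase of the endoplasmic reticulum, fell in WT mice at 12 h by 0.63 (SE 0.18, edgeR adjusted p = 0.0109), and 2 of 24 leave-outs ended that call, WT 0 h replicate 1 and WT 12 h replicate 2.

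**Figure D3:**
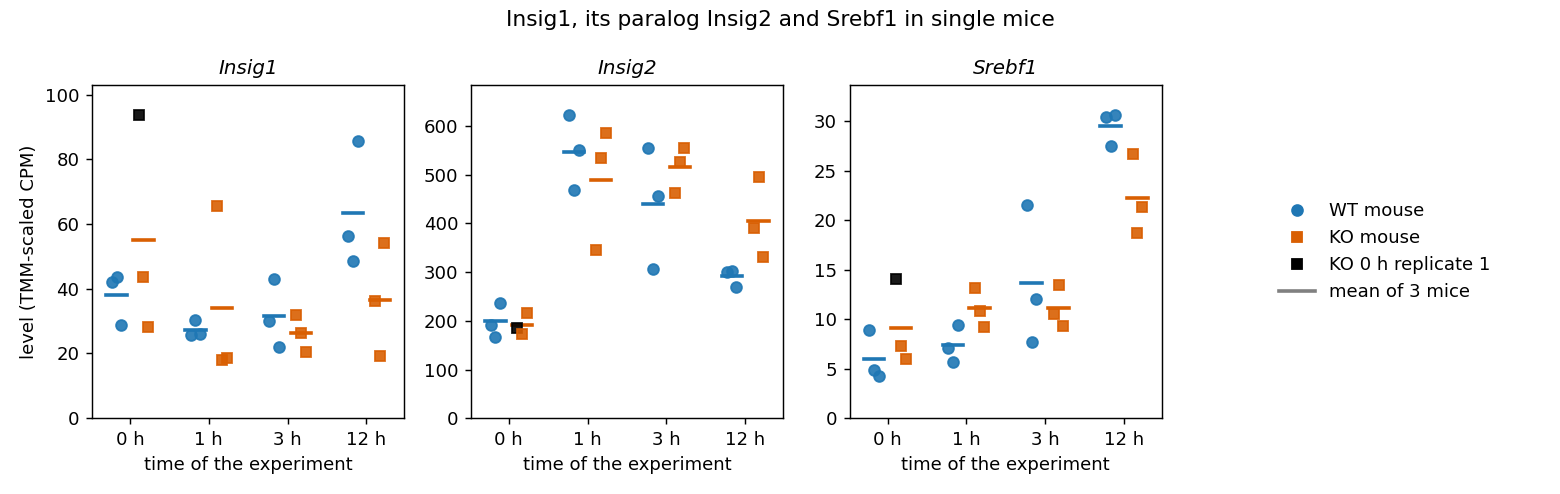
Levels (vertical axis, TMM-scaled CPM, starting at 0) of Insig1, Insig2 and Srebf1 in each mouse at 0, 1, 3 and 12 h, with WT as blue circles, KO as orange squares, KO 0 h replicate 1 as a black square and the mean of 3 mice as a bar. Insig2 stands above its 0 h mice at every later time, and the group means of Srebf1 are highest at 12 h.

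Of 7 tested genes of sterol uptake and traffic, 1 fell in WT mice at 3 h (14.1% of all genes called). At 12 h 1 rose and 1 fell in WT mice (25.6%). In KO mice 1 fell at 3 h (9.95%), and 1 rose and 2 fell at 12 h (28.8%). With 7 genes, the counts at 12 h are near the share of all genes. Npc1 and Stard4 were among the genes called. Npc1, which exports cholesterol from lysosomes, fell in WT mice by 0.52 at 3 h (SE 0.13, edgeR adjusted p = 0.00432) and 0.88 at 12 h (SE 0.13, edgeR adjusted p = 5.35e-06), and in KO mice by 0.83 at 12 h (SE 0.13, edgeR adjusted p = 1.46e-05). Without WT 3 h replicates 2 and 3, the mice with high red blood cell markers, its change at 3 h was -0.41 (edgeR adjusted p = 0.194). In KO mice Stard4 fell by 1.51 at 3 h (SE 0.38, edgeR adjusted p = 0.0153) and fell by 1.49 at 12 h (SE 0.41, edgeR adjusted p = 0.0111), from 38.8, 21.3 and 12.0 CPM at 0 h to 11.0, 7.19 and 6.54 CPM and 6.16, 8.60 and 10.8 CPM. With KO 0 h replicate 1 left out both Stard4 changes were -0.98, and the call at 12 h held (edgeR adjusted p = 0.0462) while that at 3 h did not (edgeR adjusted p = 0.0732). Leaving out KO 3 h replicate 2 or 3 also ended the call at 3 h, and leaving out KO 12 h replicate 1 that at 12 h. In WT mice Stard4 was called at neither time. At 3 and 12 h, KO against WT and the difference of the responses called 0 of the 7 genes.

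Calls among genes of sterol removal are given beside the share of all genes called. Of 13 tested genes of efflux, esterification and breakdown, 2 fell in WT mice at 1 h (8.09% of all genes called), 2 rose and 2 fell at 3 h (14.1%), and 1 rose and 3 fell at 12 h (25.6%). In KO mice 0 were called by edgeR at 1 h (3 at an unadjusted p below 0.05, 0 by DESeq2, against 7.58% of all genes), 1 rose and 2 fell at 3 h (9.95%), and 4 fell at 12 h (28.8%). The counts at 12 h are near the share of all genes. Abcg5 and Abcg8, whose products together pump sterols into bile, were the 2 that fell in WT mice at 1 h. Abcg5 was at 42.7, 42.2 and 37.4 CPM in WT mice at 0 h and 16.1, 15.0 and 16.0 CPM at 1 h, and at 36.9, 38.2 and 40.2 CPM and 41.1, 30 and 25.5 CPM in KO mice. At 1 h all 3 KO mice lay above all 3 WT mice, by 1.03 (SE 0.18, edgeR adjusted p = 0.00229) for Abcg5 and 0.84 (SE 0.14, edgeR adjusted p = 0.00148) for Abcg8. Without the library labelled KO 1 h replicate 1 these were 0.82 and 0.77, and both stayed called. Markers of Kupffer cells, the liver's macrophages, moved in the same comparisons: 5 of 8 fell in WT mice at 1 h (median -0.93), their median in KO mice was 0.23, and the difference of the responses was above 0 in 8 of 8, from 0.65 for C1qb (edgeR adjusted p = 0.654) to 3.08 for Marco (edgeR adjusted p = 0.144). Their part in the values of Abcg5 and Abcg8 was not tested. In WT mice at 3 h the rises were Abca1 (0.91) and Lcat (0.40), and the falls Abcg8 (-1.01) and Nr1h3 (-0.65). Without WT 3 h replicates 2 and 3, the mice with high red blood cell markers, these were 0.73, 0.04, -0.88 and -0.86. At 12 h Cyp7a1, the rate-limiting enzyme of bile acid synthesis, fell by 2.08 in KO mice (SE 0.45, edgeR adjusted p = 0.00222). Cyp7a1 was not called in WT mice at 12 h. Nor was it called by edgeR at 12 h for KO against WT or for the difference of the responses. Each of those comparisons called 0 of the 13 genes by edgeR and 1 by DESeq2.

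The 10 lipogenic targets of SREBP1, of which 9 were tested, moved in both directions. In WT mice 3 rose at 1 h (8.09% of all genes called), 4 rose and 1 fell at 3 h (14.1%), and 2 rose and 1 fell at 12 h (25.6%). In KO mice 1 fell at 1 h (7.58%), 2 fell at 3 h (9.95%), and 1 rose and 2 fell at 12 h (28.8%), and the counts at 12 h are near the share of all genes. Without KO 0 h replicate 1 the KO calls were 0 at 1 h, 0 at 3 h, and 1 higher and 1 lower at 12 h. The call at 1 h was Acly (-0.45, edgeR adjusted p = 0.0476), lost in 14 of 24 leave-outs and with DESeq2. Thrsp, a gene of the lipogenic programme, rose in WT mice by 2.15 at 3 h (SE 0.43, edgeR adjusted p = 0.00278) and 2.61 at 12 h (SE 0.44, edgeR adjusted p = 0.000282), while Elovl6, a fatty acid elongase, fell by 1.01 (SE 0.21, edgeR adjusted p = 0.00242) and 1.15 (SE 0.23, edgeR adjusted p = 0.000653). Acly, which makes the cytosolic acetyl-CoA used by both pathways, fell in KO mice at 3 h by 0.55 (SE 0.14, edgeR adjusted p = 0.0126), with adjusted p = 0.0701 without KO 0 h replicate 1, 0.064 without KO 0 h replicate 2 and 0.0652 without KO 3 h replicate 3. Of the markers of bile duct cells, Sox9 rose at 12 h, by 3.78 in WT (SE 0.42, edgeR adjusted p = 3.6e-06) and by 2.53 in KO mice (SE 0.41, edgeR adjusted p = 0.000201). Spp1 was not called, and Krt19, Krt7, Epcam and Cftr were too low to test, with at most 6.76, 1.15, 3.65 and 0.633 CPM in any library. The part of these in the changes at 12 h was not tested.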

How the data were processed

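Gene counts were deposited by the authors for each of 24 libraries of polyA RNA, extracted with TRIzol and sequenced on an AVITI instrument per the labels. The counts were made with STAR on build mm39, per the submitters' processing notes; those notes name neither the STAR version nor the annotation. Of 3 count columns the one without regard to strand was used. Lines that name no gene held 77.5% to 82.4% of reads and were left out. Mitochondrial ribosomal RNA took 39.6% to 50.4% of counts on genes.

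Genes were kept with filterByExpr, libraries were scaled by TMM, and a robust quasi-likelihood model with 1 mean per group was fitted to all 24 libraries in edgeR 4.0.16 (R 4.3.3), with 14 contrasts, two-sided, and Benjamini-Hochberg adjustment over 13204 genes at 0.05. The fit was tested on simulated data. DESeq2 1.42.0, other scalings, filters and strands, a replicate block and leaving out each library were the alternatives. Correlations used log2 CPM with a prior count of 2 and genes with a mean of at least 5 CPM.

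Named were all members and Egfr; in each other list up to 4 called genes per comparison by smallest p, of which the text keeps a part; and the genes most like the members, predicted genes passed over. Some genes of this rule are not reported here. The members and lists were chosen with earlier results of these data known. Promoter sequences are RefSeq's (GRCm38.p6), matched by symbol for 6 of 7 members.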

Additional observations from a re-analysis of the deposited data

Results flagged for a closer look

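The response of 2 sterol exporter genes at 1 h differed between genotypes by the test of the difference itself. The response in KO less that in WT mice was 1.11 for Abcg5 (SE 0.24, edgeR adjusted p = 0.0318) and 0.89 for Abcg8 (SE 0.19, edgeR adjusted p = 0.0229). Leaving out 1 of the 24 libraries gave 0.91 to 1.26 for Abcg5, with the call lost in 11 cases (highest adjusted p 0.082, without WT 1 h replicate 3), and 0.80 to 1.07 for Abcg8, with the call lost in 6 (highest adjusted p 0.0835, without WT 1 h replicate 1). Without the library labelled KO 1 h replicate 1 the adjusted p was 0.0592 for Abcg5 and 0.0427 for Abcg8, and without KO 0 h replicate 1 it was 0.0623 and 0.0556. The same difference of responses was above 0 in 8 of 8 markers of Kupffer cells (median 0.96). Their sum in WT mice went from 63.2, 105 and 125 CPM at 0 h to 46.3, 53.5 and 48.6 CPM at 1 h. In KO mice it went from 69.3, 51.2 and 56.9 CPM to 81.7, 59.3 and 59.5 CPM. The part of this in the 2 genes was not tested.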

How the results depend on the processing

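The number of members called was 1 in KO mice at 1 h, 1 at 3 h and 0 in the other 12 comparisons. Leaving out 1 library gave 0 to 2 at 1 h, 0 to 5 at 3 h, 0 to 3 at 12 h in KO mice, and 0 elsewhere. Without a filter on low counts the KO counts were 2, 2 and 1. DESeq2 gave 0 at 1 h and 2 at 3 h. Fits of only the groups compared gave 0 at 1 h and 0 at 3 h in KO mice, with Srebf2 at adjusted p = 0.114 and 0.0721, and 1 in WT mice at 12 h (Insig1, adjusted p = 0.026); the average over times has no such fit. Library size alone gave 2 in KO mice at 12 h, where it moved the median of all genes by -0.26 (WT, -0.37). The cause of these differences was not tested. With a replicate block the counts were 1 at 1 h and 1 at 3 h in KO mice and 0 elsewhere. The replicate numbers only share a label: over 28 pairs of groups, 0 had every correlation of same-numbered mice above 0.1 (range -0.18 to 0.23). Of the single values of members under all alternatives, 3198 kept direction and call, 97 changed sign without a call, 15 gained and 11 lost a call, and no called value changed sign. Depth limits Idi1 and Sqle, at as few as 1 and 9 counts.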
